A study of Mus musculus with 6 samples.

Results

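The nuclear RNA of the wild-type cells was described from the 3 samples labelled WT (lines 3, 8 and 19) among the 6 of a series on Fmr1, which encodes FMRP, an RNA-binding protein lost in fragile X syndrome. The other samples carry an Fmr1 knockout and were not used. Every line was Fmr1 wild type, came from mouse forebrain at E13.5 (embryonic day) and was sequenced at passage 6 to 7. The cultures stood on Matrigel in B27 and N2 medium with EGF and basic FGF, 20 ng/ml each, and heparin (5 ug/ml), and were harvested at about 80% confluency. The protocol named the dorsal hem of the forebrain as the tissue taken. Per the series' design text the lines were independent, but neither the number of embryos behind a line nor the sex of the embryos was given, so the spread between lines may be partly technical. Nuclei were separated with a commercial kit, and RT-qPCR of U1 RNA and beta-actin message decided which preparations were kept. Fmr1 itself stood at 228, 272 and 269.8 CPM (counts per 1000000 counts of the library).

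Neural precursor cells keep dividing in culture and can form neurons and glia. Radial glia, their counterparts in the embryonic forebrain, carry the intermediate filaments nestin and vimentin, the lipid-binding protein Fabp7 and the transcription factors Sox2 and Pax6. RNA taken from nuclei includes transcripts that remain there, such as Malat1 of nuclear speckles and Xist of the inactive X chromosome, together with protein-coding transcripts not yet exported and RNA of the endoplasmic reticulum that can stay attached to nuclei.

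Levels are CPM, as mean ± SD over the 3 lines unless given by line. Per-line values always follow the order 3, 8, 19. Since a long RNA yields more counts than a short one at the same number of molecules, an order, median or sum in CPM describes counts, and values per kb of annotated exon (CPM per kb) are given where levels of different genes are compared. A gene counted as detected at 1 CPM or more in each line. Total counts were 26789522, 19578649 and 18702738, so that 1 CPM stood for 18.7 to 26.8 counts, with a counting error of 19.3% to 23.1%. Of 23337 gene rows, 18251 had a count, 12649 (54.2%) were detected, the median over all rows was 2.91 CPM, 2434 reached 100 CPM in every line and 49 reached 1000 CPM. Counts of list members detected are to be read beside that 54.2%. Line 19 stood apart from lines 3 and 8 with far less Xist and more Y-linked RNA, ribosomal RNA precursor and Malat1, and levels that rest on it are given by line. Smaller shifts ran through whole lists. Line 19 was the lowest line for 74 of 78 ribosomal protein genes, beside 43.6% of all rows with a mean of 1 CPM or more. It was the highest for 39 of 59 growth factor and morphogen receptors, beside 29.7% of all such rows.

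Levels of 5 marker genes are given first. They were chosen with earlier results of these data known, so they do not test the label. Nes (nestin, chr3:87971078-87980451) stood at 2322, 2216 and 2829 CPM, rank 12 of all genes. Fabp7 (chr10:57784881-57788450), the fatty acid binding protein of radial glia, stood at 1425, 1276 and 1267 CPM. Line 19 was the highest line for Nes, and line 3 for Fabp7. Per kb of exon, Fabp7 was the first of all genes at 1058 ± 71.1 CPM per kb, and Nes, whose exons are longer, was at 383 ± 51.1. Sox2 (chr3:34650405-34652461), a transcription factor of neural stem cells, stood at 104, 106 and 111 CPM and 52 CPM per kb. Olig2 (chr16:91225457-91228677), a transcription factor of ventral precursors and the oligodendrocyte lineage, stood at 361, 334 and 357 CPM and 139 CPM per kb, so that per kb its 3 lines (143, 132 and 141) lay above those of Sox2 (50.4, 51.5 and 53.9). The fifth marker, Malat1 (chr19:5795690-5802672), stood at 3935, 4503 and 8149 CPM, with line 19 above the others.

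**Figure D1:**
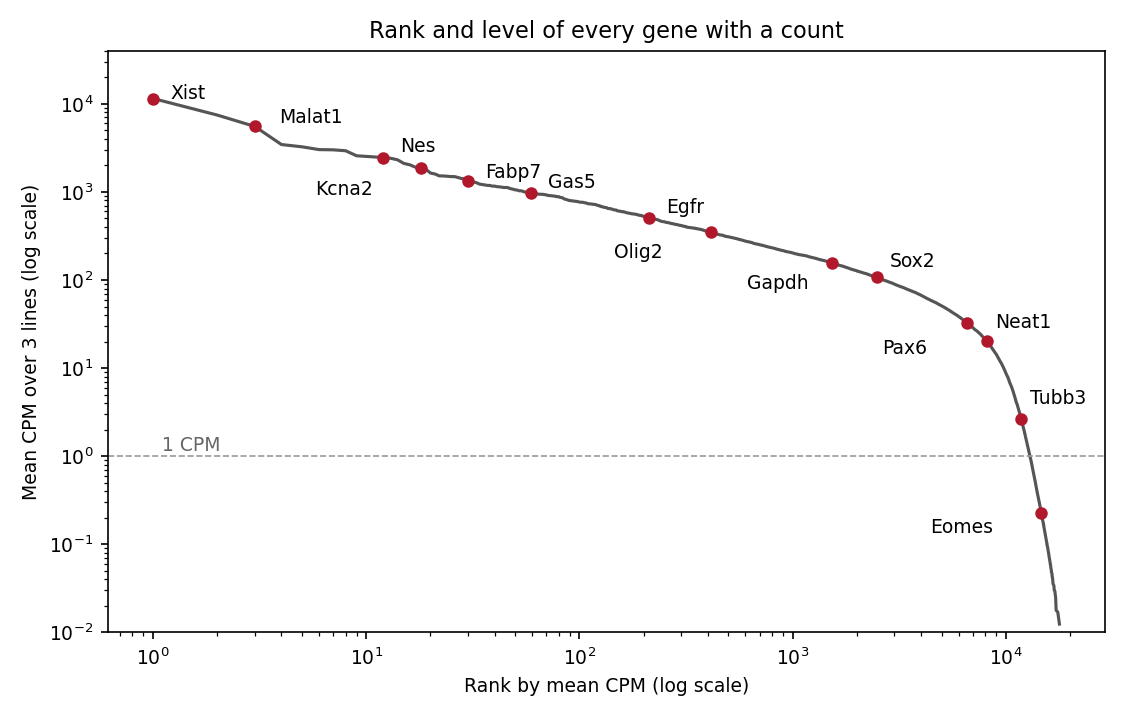
Mean CPM over the 3 lines (vertical axis, log scale) of every gene with a count, in order of rank (horizontal axis, log scale); red points mark named genes and the dashed line 1 CPM. Nes, Fabp7 and Kcna2 lie within the first 30 ranks, while Eomes, a marker of intermediate precursors, lies below 1 CPM.

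The nuclear noncoding RNAs are shown first by the elements they are known for. Malat1 lacks a usual poly(A) tail, and its 3′ end is protected by a triple helix that U-rich stretches form with an A-rich stretch, next to a tRNA-like part that is cut off. The first sequence lies near the end of the annotated Malat1 transcript (chr19:5795918-5796087, minus strand, GRCm38), with these runs in capitals. The second is a stretch near the 5′ end of Xist, in an exon (chrX:103482595-103482894, minus strand), from the A-repeat that is needed for silencing, with each GGATAC in capitals. Both were read from the transcripts of GENCODE mouse release 21 and are written as DNA.
Malat1 3′ stretch: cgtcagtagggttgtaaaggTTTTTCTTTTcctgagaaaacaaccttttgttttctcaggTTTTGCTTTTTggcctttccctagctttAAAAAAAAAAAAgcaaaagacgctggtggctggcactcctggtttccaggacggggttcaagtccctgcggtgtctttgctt
Xist A-repeat stretch: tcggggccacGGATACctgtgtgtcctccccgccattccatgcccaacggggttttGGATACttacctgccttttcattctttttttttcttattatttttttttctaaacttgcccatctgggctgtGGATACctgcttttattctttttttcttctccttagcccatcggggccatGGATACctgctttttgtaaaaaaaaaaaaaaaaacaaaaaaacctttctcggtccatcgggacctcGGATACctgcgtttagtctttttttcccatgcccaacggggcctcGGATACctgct
In Malat1, TTTT or more, then C or GC, then TTTT or more, occurred 4 times in the 6983 bases and 2 times in this stretch, and the run of 8 or more A occurred 1 time. On the opposite strand the T-rich pattern matched 1 time. Of 176319 windows of 170 bases cut from all GENCODE long noncoding transcripts, 0.945% held the T-rich pattern, 1.76% the A-run and 5 held at least 2 of the former with the latter. GGATAC occurred 10 times in Xist, 6 of them in the 300 bases shown, and its reverse complement GTATCC 1 time. Of windows of 300 bases from the same transcripts, 4.17% held a GGATAC.

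Xist, Rn45s and Malat1 headed the ranking, and only Malat1 was among the first 3 in every line. Xist (chrX:103460366-103483254) stood at 15783, 18582 and 80.6 CPM: lines 3 and 8 lay close together and line 19 far below. Rn45s, the row of the ribosomal RNA precursor, stood at 2108, 1755 and 18476 CPM, with line 19 far above the other lines. The SDs of these means (11482 ± 9972 and 7447 ± 9554 CPM) therefore describe a gap between lines, not a spread around a common level. Malat1, at 5529 ± 2287 CPM, had the next count after Xist in lines 3 and 8 and after Rn45s in line 19, above every protein-coding gene in each line. In percent of counts, Xist took 1.58%, 1.86% and 0.00806%, Malat1 0.394%, 0.45% and 0.815% and Rn45s 0.211%, 0.176% and 1.85%.

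The other RNAs among the 20 highest were protein coding. RNA-binding and chromatin proteins formed 1 set: Hnrnpa2b1 (3448 ± 325 CPM), an RNA-packaging protein, Ddx17 (3021 ± 63.4) and Ddx5 (1637 ± 143), a pair of related RNA helicases, Srrm2 (2931 ± 164), a scaffold of nuclear speckles, and Chd4 (1814 ± 89), the ATPase of the NuRD chromatin remodeller. Radial glial and cytoskeletal genes formed another: Spna2 (now Sptan1, 3248 ± 219), a spectrin, Ptprz1 (3003 ± 109), a receptor phosphatase, Vim (2571 ± 67.9), Tnc (2500.2 ± 345), the matrix protein tenascin C, and Nes (2456 ± 328). Cell cycle genes were Mki67 (2316 ± 111), the proliferation antigen Ki-67, and Ccnd1 (2106 ± 167), cyclin D1. Metabolism and translation were represented by Ckb (2531 ± 122), brain creatine kinase, Slc5a3 (2409 ± 170.3), a myo-inositol transporter, Scd2 (1907 ± 74.8), a fatty acid desaturase, and Eef1a1 (2029 ± 415), a translation elongation factor. The last was Kcna2, a voltage-gated potassium channel, at 1993, 1842 and 1770 CPM. From the fourth rank down, neighbouring genes in this ranking often overlapped in their lines, so that single ranks are not firm.

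**Figure D2:**
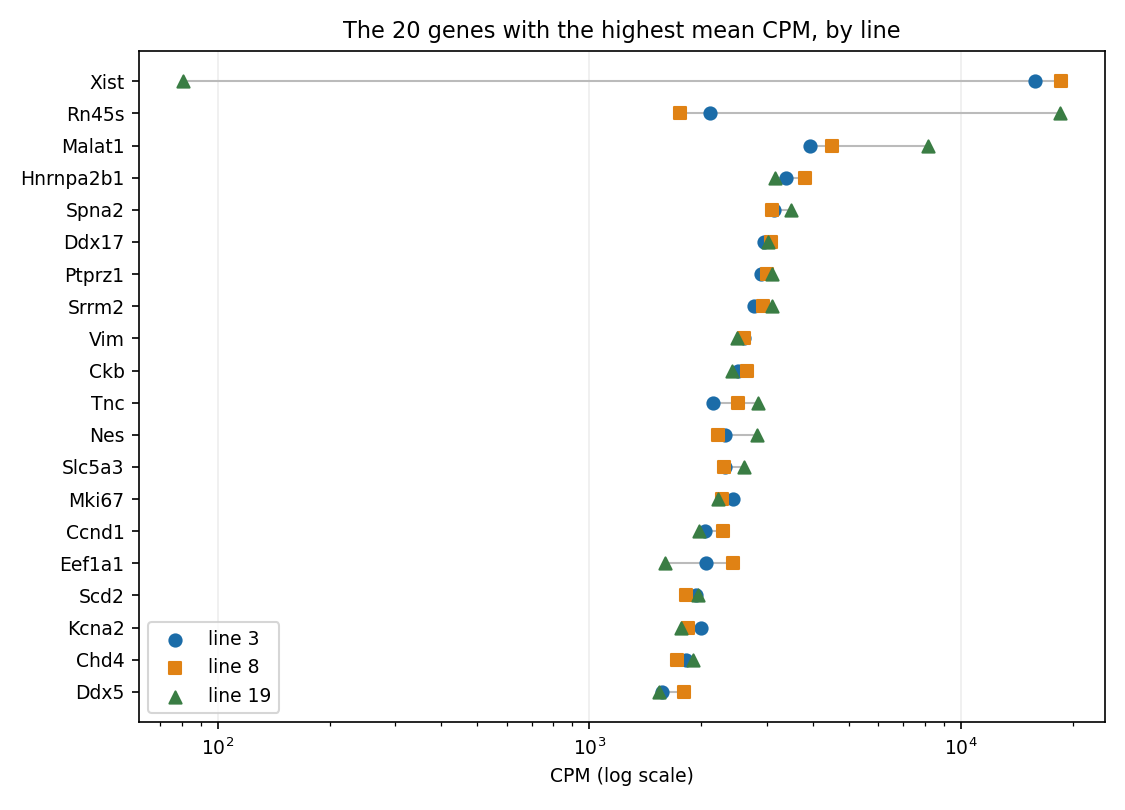
CPM (horizontal axis, log scale) of the 20 genes with the highest mean, in that order from the top, with a point for each line and a grey bar from the lowest to the highest. Line 19 leaves the other lines for Xist (80.6 CPM) and Rn45s (18476 CPM) and, to a smaller degree, for Malat1.

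Long RNAs were favoured in this list. The 100 highest genes by CPM had a median exon length of 8870 bases, against 4601 over all genes detected, and 51 of them were also among the 100 highest per kb. Per kb of exon, Fabp7 (1058 ± 71.1 CPM per kb) was followed by Ckb (874 ± 42.2), Eef1a1 (814 ± 166), Malat1 (792 ± 328) and Tmsb4x (658 ± 130), an actin-binding peptide. Then came Xist (639.8 ± 556), Vim (542 ± 14.3), Hnrnpa2b1 (524 ± 49.4), Hsp90ab1 (502 ± 62.8), a cytosolic chaperone, Igfbp3 (448 ± 25.6), a secreted carrier of insulin-like growth factors, Ccnd1 (447 ± 35.5) and Lgals1 (419 ± 51.5), galectin-1. In line 19, Malat1 was the highest of these at 1167 CPM per kb and Xist the lowest at 4.49. The median over all genes detected was 8.29 CPM per kb. With the longest transcript in place of all merged exons, Fabp7 kept the first place and Ddx17 and Dbi entered the first 12 in place of Ccnd1 and Lgals1.

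Counts were spread over many genes. The 10 most abundant genes of each line held 4.24%, 4.68% and 5.08% of the counts, the 100 most abundant 15% ± 0.621 and the 1000 most abundant 45.3% ± 0.768. Protein-coding rows took 96.3% ± 0.248, long noncoding rows 2.76%, 3.09% and 1.63%, pseudogene rows 0.0826% ± 0.00502 and small noncoding rows 0.0565% ± 0.00268. Rows that matched no annotated gene took 0.336% ± 0.00758 and were put in no class. Without Xist and Malat1, the other long noncoding rows together held 0.793% ± 0.0148, so the lower long noncoding share of line 19 lay in Xist.

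Of 52 rows on a list of long noncoding RNAs, 43 were detected, with a median of 29.5 CPM beside 2.91 CPM over all rows. After Xist and Malat1 came Gas5 (chr1:161034422-161038539), a snoRNA host gene, at 1016, 902 and 974 CPM and 256 CPM per kb. It was followed by Tug1 (268 ± 14.7 CPM, 27.5 per kb), a widely expressed long noncoding RNA. 6720401G13Rik (now Firre), an X-linked RNA that acts in nuclear architecture, stood at 247, 248 and 239 CPM. Its SD was 5.01 CPM, and line 19 did not stand apart as it did for Xist on the same chromosome. 2610203C20Rik (now Mir100hg), the host of miR-100 and miR-125b, stood at 239.9 ± 31.2 CPM.

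The remaining noncoding rows among the highest 12 were Gm17066 (358 ± 21.2 CPM), Snhg1 (149 ± 12.9), Snhg5 (143 ± 7.51), 9430008C03Rik (now Snhg17, 135 ± 3.51) and AI854517 (now Mir9-3hg, 161, 72.5 and 150.3), the host of a miR-9 copy, which was lowest in line 8. Exons of Rbm26 on the same strand cover 37.1% of the exon bases of Gm17066, so its count is uncertain. Below them, Kcnq1ot1, the imprinted antisense transcript of the Kcnq1 locus, stood at 109.5, 95.1 and 158 CPM and was highest in line 19. Neat1, the scaffold RNA of paraspeckles, reached 18.2, 21.5 and 21 CPM, rank 8126. Malat1 lies next to it in the genome, and per kb the lines of Neat1 (0.877, 1.04 and 1.01) lay far below those of Malat1 (564, 645 and 1167). The imprinted Meg3 stood at 11.3, 10.5 and 13.9 CPM. Under 1 CPM in every line were 9 rows, among them Tsix, the antisense partner of Xist.

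Mature microRNAs carried by these host genes and by 3 of the detected microRNA rows (Mir3064, Mir7-1 and Mir25) are shown. Their seed, bases 2 to 8, is in capitals (RefSeq, GRCm38.p6). A let-7a copy was also sought for 2610203C20Rik, but its sequence was not found in the source used. The rows count reads over hairpin genes and do not measure mature microRNAs.
miR-9-5p (in AI854517): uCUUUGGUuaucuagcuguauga
miR-100-5p (in 2610203C20Rik): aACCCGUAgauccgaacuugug
miR-125b-5p (in 2610203C20Rik): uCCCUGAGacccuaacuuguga
miR-7a-5p (in Hnrnpk): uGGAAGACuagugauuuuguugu
miR-25-3p (in Mcm7): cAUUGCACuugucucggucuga
miR-3064-5p (in Ddx5): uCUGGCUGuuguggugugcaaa
Each of the 6 had a seed of its own. Of 646 microRNA rows, 18 were detected and 424 had no count. Mir3064 stood at 24.4, 25.6 and 21.8 CPM inside Ddx5, whose exons cover the whole hairpin (100%), and Mir7-1 at 6.53, 5.57 and 6.36 CPM inside Hnrnpk. Mir703 (5.82 ± 1.17 CPM), Mir186 (5.14 ± 0.328), Mir1191 (4.67 ± 0.0812) and Mir1898 (3.67 ± 0.693) had the next counts, and exons of another gene on the same strand cover Mir1191 in full (100%). Mir25, further down, stood at 2.43, 2.15 and 2.78 CPM inside Mcm7.

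The small RNAs of nucleoli and Cajal bodies guide the modification of ribosomal and spliceosomal RNA, and most lie in introns of host genes. C/D snoRNAs carry a C box near the 5′ end (TGATGA) and a D box near the 3′ end (CTGA), and H/ACA snoRNAs end in ACA and a few more bases. Printed from GENCODE are 5 of the 6 highest rows (GRCm38, plus strand), with TGATGA in the first 20 bases, CTGA in the last 20 or ACA in the last 8 in capitals.
Snora65 (in Rpl12, chr2:32963291-32963420): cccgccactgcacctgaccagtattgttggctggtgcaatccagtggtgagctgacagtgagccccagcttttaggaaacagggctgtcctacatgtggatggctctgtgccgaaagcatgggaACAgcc
Snord22 (in Snhg1, chr19:8725866-8725991): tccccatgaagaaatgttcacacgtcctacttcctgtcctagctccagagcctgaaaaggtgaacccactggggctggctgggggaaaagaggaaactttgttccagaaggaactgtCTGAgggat
Snord47 (in Gas5, chr1:161038082-161038158): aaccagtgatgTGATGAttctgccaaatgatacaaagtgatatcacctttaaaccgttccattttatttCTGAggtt
Snord96a (in Gnb2l1, chr11:48802032-48802112): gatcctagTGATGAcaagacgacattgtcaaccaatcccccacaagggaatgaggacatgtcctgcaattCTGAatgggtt
Snord2 (in Eif4a2, chr16:23108953-23109021): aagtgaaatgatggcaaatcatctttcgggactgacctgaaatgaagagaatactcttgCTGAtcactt
Read on the transcript's strand, Snord47 and Snord96a held both letter patterns, and Snord22 and Snord2 held CTGA only. Among all Snord transcripts of the annotation, 71.4% held TGATGA and 98% CTGA in these windows, and 95.2% of Snora transcripts held ACA.

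In CPM, rows of snoRNAs and scaRNAs were low, and their short length lowers such counts. Of 119, 62 (52.1%) were detected, near the 54.2% of all rows. The median of the 119 was 1.44 CPM and their sum was 465, 423 and 456 CPM. Snora65 stood at 29.9, 25.9 and 28.8 CPM, Snord22 at 27.8, 29.3 and 27.4, Snord47 at 29.4, 24.9 and 27.7 and Snord96a at 22.3, 19.6 and 18.6. Snord12 (17.8 ± 0.489) and Snord2 (16.4 ± 2.22) came after. Per kb, these 6 rows in the same order had means of 217, 224, 355, 249, 198 and 237 CPM per kb. The median over all genes detected was 8.29 CPM per kb, at a median exon length of 4601 bases. Rows of 200 bases or less, as these 6 are, were left out of the ranks per kb. Their values per kb are therefore not comparable with that median. The lines of each row lay close together and line 19 did not stand apart. A host gene on the same strand enclosed 109 of the rows, in 80 hosts, 23 of them ribosomal protein genes and 16 long noncoding. The hosts of detected rows had a median of 154 CPM and the hosts of the other rows a median of 159.6 CPM. Where an annotated exon of the host covers the snoRNA, as for all 6 named here, reads of the pair cannot be told apart.

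Apart from Rn45s, other noncoding RNAs of nuclear machines had low counts, and 9 of 13 rows were under 1 CPM in every line. Rmrp, the RNA of RNase MRP, which cuts the ribosomal RNA precursor, stood at 1.57, 1.12 and 6.58 CPM and was highest in line 19, as Rn45s was. Rpph1, the RNA of RNase P, stood at 0.933, 1.28 and 1.82 CPM, and Terc, the telomerase RNA, at 0.261, 0.204 and 0.267. Rnu73b, a small noncoding row of 71 bases on this list, stood at 6.68, 5.36 and 6.15 CPM. It lies at chr3:86140618-86140688, near the snoRNA row Snord73a (chr3:86138791-86138858), whose host is Rps3a. Whether Rnu73b belongs with the snoRNAs, or takes reads of Rps3a, was not tested. These rows are short, and per kb Rmrp stood at 5.58, 4 and 23.4. Rnu73b had a mean of 85.4 CPM per kb, but at 71 bases it was left out of the ranks per kb. Rpph1 and Terc had means of 4.21 and 0.578 CPM per kb, beside a median of 8.29 over all genes detected. Exons of a second annotated Rmrp entry and of Ccdc107 on the opposite strand together cover 96.4% of Rmrp, and exons of Ccnb1ip1 cover 73% of Rpph1, so both counts are uncertain. Of 31 symbols sought, those of U1 and 7SK among them, 13 had a row. Of the 13 rows found, 5 had no count, among them Rnu6 and Rnu7. No level is given here for U1 or 7SK. Whether the libraries were made from polyadenylated RNA is not given in the sources used here, and most of these short RNAs lack a poly(A) tail. Malat1, which lacks a usual tail but holds the A-run printed above, ranked among the first genes. How library selection bears on these levels was not tested. Of the replication-dependent histone messages, which end in a stem-loop, 8 of 68 rows were detected, with a median of 0.0694 CPM. The highest were Hist2h2be (22.4, 23.5 and 20.7 CPM), Hist1h2bc (8.41 ± 1.34), Hist3h2a (7.31 ± 1.96), Hist1h1c (6.78 ± 1.19), Hist2h3c1 (4.78 ± 1.16) and Hist1h4i (2.18 ± 0.512).

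Messages of the proteins that bind nuclear RNAs were well represented, with 42 of 43 detected. Sfpq (939 ± 98.1 CPM), a paraspeckle protein, Hnrnpu (936 ± 88.7), which holds Xist on the X chromosome, and Tardbp (791 ± 92) were listed with Snrnp70 (509.7 ± 2.49) of the U1 particle and Hnrnpk (481 ± 66.9). Snrnp70 differed little between lines (509, 512 and 507 CPM). Sfpq and Hnrnpu were both lowest in line 3, and per kb the lines of Hnrnpu (73.2, 88.5 and 80.5) lay below those of Sfpq. Per kb, Sfpq stood at 182, 221 and 191 CPM per kb and Neat1, the RNA of the same body, at 0.877, 1.04 and 1.01.

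Messages for abundant cytoplasmic proteins were also present in nuclei: 19 of 21 were detected and their sum was 10176, 11344 and 8560.4 CPM. Eef1a1 stood at 2055, 2431 and 1602 CPM, Hsp90ab1 at 1435, 1719 and 1362 and Eef2, another elongation factor, at 1149.9, 1267 and 1140. Actb, the message the authors used to judge separation, stood at 679, 859 and 669 CPM, and Gapdh, a glycolytic enzyme, at 160.3, 177 and 132. Line 19 was the lowest line for 19 of the 19 members with a mean of 1 CPM or more, beside 43.6% of all such rows. No cytoplasmic fraction was among these samples, so enrichment in the nucleus cannot be measured. Eno1 had no count and Ubb stood at 0.737 CPM. Both share near-identical stretches with other genes that could take their reads, so these values are uncertain.

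Ribosomal protein genes were also lowest in line 19. Of 80 rows, 78 were detected, with a sum of 9657, 9152 and 7143 CPM, and line 19 was the lowest for 74 of 78. Their median ratio of line 19 to the mean of lines 3 and 8 was 0.761, beside 0.973 over all rows at 1 CPM or more. Rpl4 stood at 447, 451 and 349 CPM, Rpl3 at 367, 389.7 and 287, Rplp0 at 286, 278 and 213 and Rps3 at 261, 252 and 172, all lowest in line 19, and Rpl13a (228 ± 35.8) and Rps15a (210.2 ± 25.2) came next. Rn45s, Malat1 and the nuclear-machine RNA Rmrp were highest in that line, and whether its nuclear preparation held less cytoplasm was not tested. Many of these genes have processed copies elsewhere, and low members such as Rpl26, without a count, are uncertain for that reason.

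Radial glial and neural stem cell genes were all detected, 31 of 31, with a median of 97.1 CPM. Ptprz1 stood at 2891, 3008 and 3108 CPM, Vim at 2610.2, 2610.1 and 2493, Tnc at 2151, 2509 and 2841 and Slc1a3, the glial glutamate transporter GLAST, at 1132, 1023 and 1057. Per kb the order was Fabp7, Vim (550.3, 550.3 and 526), Nes (362, 345 and 441), Tnc (277, 323 and 366), Ptprz1 (203, 211 and 218) and Slc1a3 (133, 119.9 and 124), where only Nes and Tnc overlapped in their lines. Proliferation genes were detected in full as well (24 of 24, median 124 CPM). After Mki67 (2439, 2282 and 2226 CPM) and Ccnd1 (2044, 2295 and 1979) came Ccnd2 (1491 ± 61.1), a second D-type cyclin, Top2a (819 ± 103), the mitotic topoisomerase, Kif11 (396 ± 9.79), a spindle motor, and Cenpf (393 ± 31.5), a kinetochore protein. Line 19 was the lowest line for 20 of the 24 proliferation genes, beside 43.6% of all rows with a mean of 1 CPM or more.

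Astrocyte genes were detected for 17 of 20 members, and many of them are also expressed by radial glia. After Slc1a3 came Sparcl1 (191, 325 and 177 CPM), a secreted glial protein that was highest in line 8, Cd44 (252, 191 and 244), a hyaluronan receptor, and Aldh1l1 (150.2, 137 and 361), a folate enzyme that was highest in line 19. Id3 (102 ± 9.62) and Clu (100.2 ± 12) were the next. Of the oligodendrocyte lineage, 11 of 18 were detected. The early transcription factors Olig2, Olig1 (299, 291 and 338 CPM) and Sox8 (106, 102 and 103) led, Cnp (41.3 ± 2.2), Cspg4 (34.4 ± 3.51) and Nkx2-2 (28.3 ± 4.08) followed, and the myelin genes Mbp and Mag had no count, nor had Enpp6. In bulk RNA, fewer cells of a type and less RNA per cell cannot be told apart.

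**Figure D3:**
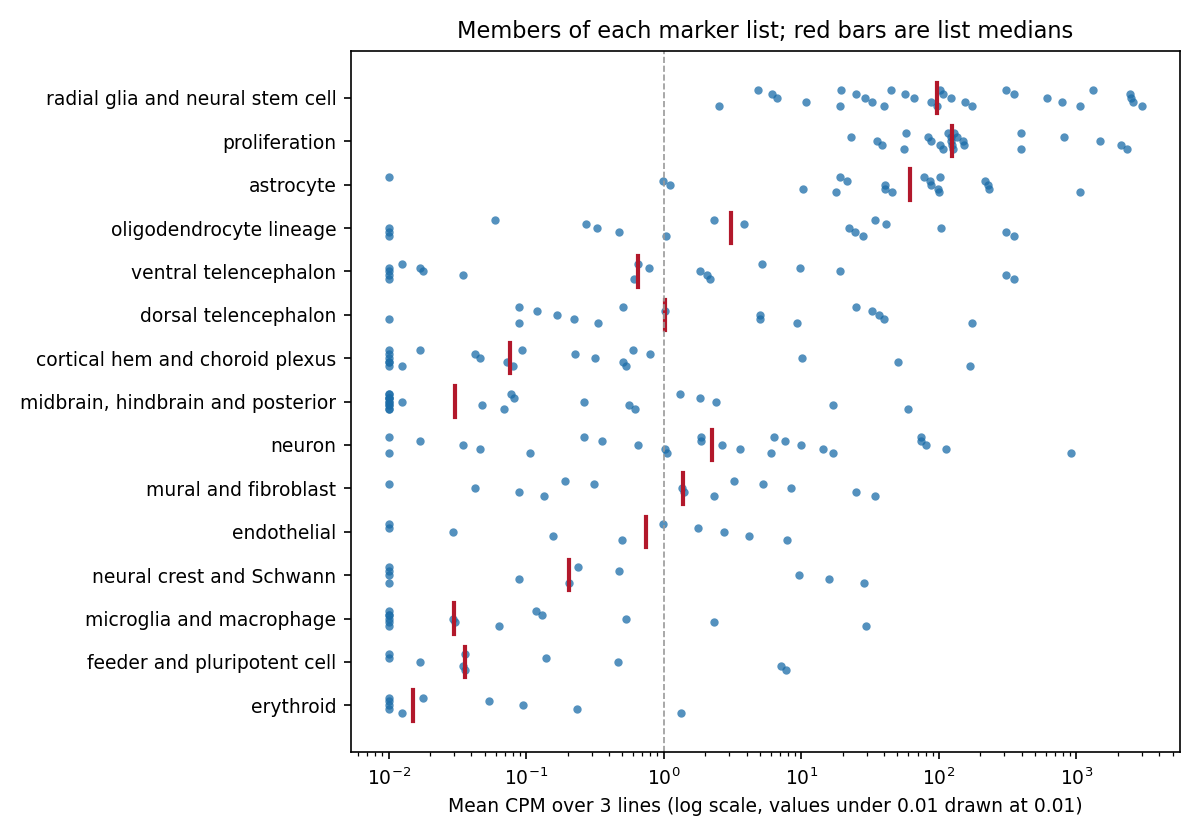
Mean CPM over the 3 lines (horizontal axis, log scale, values under 0.01 drawn at 0.01) of each member of 15 marker lists; red bars are the medians of all members and the dashed line is 1 CPM. Radial glial and proliferation genes lie to the right of the dashed line without exception, and the erythroid, pluripotent and microglial lists lie mostly to its left.

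Regional genes gave a mixed picture that did not match the dissected tissue in full. Of the dorsal telencephalic genes, 8 of 17 were detected (median 1.02 CPM): Nr2f1 (167, 164 and 188 CPM) led, before Emx2 (33.8, 38.9 and 46.2), Pax6 (34.5, 34.1 and 28.8), Lhx2 (25.1 ± 7.21) and Dmrta2 (9.26 ± 1.02). Lhx2 is needed for cortical identity and Pax6 for cortical radial glia, and the lines of both were low beside Sox2 per kb (5.76, 4.06 and 7.34 and 2.95, 2.91 and 2.46 CPM per kb). Emx1, Neurog2, Eomes and Neurog1, which mark cortical precursors and their neuronal progeny, were under 1 CPM in every line, and Neurog1 had no count. Of the genes of the cortical hem, a signalling centre at the edge of the cortex, and the choroid plexus, 3 of 22 were detected, namely Wnt5a (169.9, 171 and 161 CPM), Bmp7 (60.1, 43.9 and 46.4) and Wnt2b (11.6, 8.89 and 9.95). The hem genes Wnt3a, Lmx1a and Gdf7 had no count and Wnt8b stood under 1 CPM. In these cultured cells, those genes did not bear out the label of the tissue taken, although Wnt5a, Bmp7 and Wnt2b were detected. The list mixes hem and choroid plexus genes, so its share of members detected does not measure the hem alone. With no count in a line, a level of up to 0.112 to 0.16 CPM (3 counts) remains possible from counting error alone.

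Of the ventral genes, 7 of 19 were detected. Olig2 and Olig1 (138, 134 and 156 CPM per kb) lay above Six3 (0.274, 1.31 and 3.78) per kb. By CPM, Six3 stood at 1.49, 7.15 and 20.6 CPM, Gsx1 at 5.18 ± 1.48 and Sp9 at 2.18 ± 0.603, and Gsx2, Nkx2-1, Lhx6 and Isl1 had no count. Six3 was lowest in line 3 and highest in line 19, as was Six3os1 (11.9, 71.1 and 205 CPM), which is transcribed from the opposite strand across the start of Six3. Of the midbrain, hindbrain and posterior genes, 4 of 24 were detected: En2 (42.2, 57.9 and 80.4 CPM), a midbrain-hindbrain factor, Egr2 (11.2, 27.8 and 11.7), which is also an immediate early gene, En1 (2.41 ± 0.616) and Gbx2 (1.84 ± 0.558). Hoxa2 stood at 0.623 ± 0.413 CPM. 11 members had no count, Hoxb1, Hoxb4 and Hoxc8 among them.

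Some neuronal genes had high counts and others none. Of 26 members, 15 (57.7%) were detected, near the 54.2% of all rows, with a median of 2.24 CPM. Mtap2 (now Map2, 999.6, 970 and 767 CPM), a microtubule protein of dendrites, was the highest. Gad2, which makes GABA, stood at 89, 93.2 and 155 CPM, highest in line 19, Reln at 80.1, 76.9 and 83.3, Elavl4 at 72.2, 88.7 and 62, Gap43 at 77.2, 87.4 and 56.2 and Elavl3 at 20.6, 14.4 and 15.6. Against these, Neurod2 and Slc17a6 had no count, and Neurod6 and Slc32a1 stood under 1 CPM in every line. Tubb3, the tubulin of young neurons, stood at 3.21, 2.4 and 2.3 CPM and Dcx, doublecortin of migrating neurons, at 1.01, 0.664 and 0.267 CPM.

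Of the lists of cells outside the neural lineage, the mural and fibroblast list had the largest share of members detected and the erythroid list none. That largest share was 50%, near the 54.2% of all rows. For microglia and macrophages, 2 of 14 members were detected, Cd68 (29.3, 27.4 and 32.4 CPM), a lysosomal protein, and Fcer1g (2.8, 2.2 and 1.92), while the defining C1qa, C1qb, Tmem119 and Tyrobp had no count. P2ry12, Aif1, Csf1r and Ptprc had means of 0.529, 0.131, 0.118 and 0.0635 CPM. For endothelial cells, 4 of 10 were detected, with Flt1 (5.52, 7.66 and 10.5) the highest before Kdr (4.15 ± 0.446), Esam (2.74 ± 0.456), Tek (1.76 ± 0.145), Emcn (0.989 ± 0.118) and Pecam1 (0.495 ± 0.142), and Cldn5 and Tie1 had no count. Mural and fibroblast genes (7 of 14 detected, median 1.37 CPM) were led by Cspg4 and Foxc1 (23.3, 25.6 and 25.6), with Tbx18 (8.4 ± 2.07), Col3a1 (5.25 ± 1.05), Tagln (3.23 ± 0.304) and Pdgfra (2.32 ± 1.27) below and Pdgfrb and Col1a2 under 1 CPM in every line.

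Neural crest and Schwann genes (3 of 11 detected) were led by Ets1 (31.7, 29.2 and 24.9 CPM), Pmp22 (16, 14.5 and 17.2) and Mitf (11.5, 10.3 and 7.33). Their defining Sox10 stood at 0.471 CPM and Ngfr at 0.238 CPM, and Foxd3, Dct and Twist1 had no count. Of the feeder and pluripotent genes (2 of 10 detected), Klf4 (7.65, 9.04 and 6.63 CPM) and Esrrb (7.69, 7.05 and 6.52) had a level, but Lin28a (0.465), Nanog (0.14), Pou5f1 (0.0356) and Tdgf1 (0.0356) were near 0. No erythroid gene passed (0 of 10), where Alas2 (0.896, 1.07 and 2.03 CPM) was the highest, Klf1 was under 1 CPM, and Hba-a1 and Hbb-bh1 had no count. The summed levels by line were 32.6, 30.6 and 35.4 CPM for microglia, 15.5, 19.1 and 20.1 for endothelium, 76, 88.9 and 81.1 for mural cells and fibroblasts, 60.2, 54.5 and 50.9 for neural crest and 1.34, 1.38 and 2.51 for erythroid cells. The radial glial list summed to 15681, 15734 and 17137.

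Immediate early genes, which respond within minutes to growth factors and handling, were detected for 14 of 16 members. Egr1 stood at 832, 767 and 892 CPM, Jun at 216, 201 and 271 and Fos at 179, 242 and 223. Myc (77.4 ± 7.63), Btg2 (69.5 ± 2.05) and Ier3 (52.1 ± 9.87) were lower. Egr2 (11.2, 27.8 and 11.7), Fosb (10.5, 24.8 and 8.02) and Nr4a1 (11.3, 19.4 and 12.6) were highest in line 8, unlike Egr1 and Jun.

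Growth factor receptors were described next, since the cultures were kept in EGF and FGF. Of 68 growth factor and morphogen receptors, 57 were detected, with a median of 31.8 CPM. Egfr, the EGF receptor, stood at 501, 492 and 519 CPM, Erbb2 at 21.6, 22 and 26.8 and Erbb4 at 1.57. Fgfr1 stood at 416, 355 and 424 CPM, Fgfrl1, a relative without a kinase, at 79.7, 62 and 83.6 and Fgfr3 at 47.6, 29.6 and 44.5. Per kb, Egfr (44.3, 43.4 and 45.8) and Fgfr1 (42.2, 36 and 42.9) lay side by side, with the lines of Egfr slightly above. The members of the EGF family summed to 524, 516 and 548 CPM and those of the FGF family to 589.7, 474 and 596.

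Notch receptors, which keep precursors undifferentiated, summed to 1143, 1054 and 1499.6 CPM. Notch1 stood at 754, 636 and 960.4 CPM, Notch3 at 246, 285 and 348 and Notch2 at 141, 131 and 189, and each was highest in line 19. Hes5, a Notch target of the radial glial list, stood at 3.1, 12.7 and 2.57 CPM and was highest in line 8, while the related Hes1 stood at 81.4, 127 and 95.7. Exons of a gene on the opposite strand cover 31.8% of Hes5. Wnt receptors summed to 885 ± 40.2 CPM (14 of 15 detected), with Fzd3 at 323, 324 and 370.4, the coreceptor Lrp6 at 166, 179 and 181 and Fzd1 at 87.7, 88.4 and 85.8. The Hedgehog receptors included Smo (81.7, 72.3 and 83.1) and Ptch1 (48.4, 47.8 and 51.5), and per kb Smo (14.5, 12.9 and 14.8) lay above Ptch1 (3.41, 3.37 and 3.63).

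Insulin family receptors summed to 599.6 ± 42.3 CPM over Igf1r (218 ± 26), Igf2r (200.4 ± 29.2) and Insr (181 ± 8.19). Per kb, the lines of Igf2r (19.9, 19.5 and 25.1) lay above those of Igf1r (11.5, 14.6 and 13) and Insr (13.1, 12.6 and 13.8), which overlapped. BMP and TGF-beta receptors were detected in full (10 of 10), led by Bmpr1a (113, 129 and 117 CPM), Tgfbr1 (99.1 ± 1.34) and Acvr2a (52.2 ± 2.89). The receptors of LIF and CNTF, cytokines that favour astrocytes, were Il6st (125, 112 and 127), their shared subunit, Lifr (75.2 ± 7.3) and Cntfr (72.1, 58 and 91.6). Neurotrophin and GDNF receptors were led by Ntrk2 (206, 164 and 195), the BDNF receptor, Ntrk3 (72.5 ± 1.56) and Gfra1 (22.5 ± 2.03). Among other kinases, Ddr1 (429, 403 and 500.4), a collagen receptor, led at 93 CPM per kb, before Tyro3 (93.4 ± 7.99 CPM, 15.1 per kb) and Mertk (67.5 ± 5.35 CPM, 15.6 per kb).

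Guidance receptors were led by plexins, the semaphorin receptors, which were detected in full (9 of 9) and summed to 1454, 1356 and 1787 CPM. Plxnb2 stood at 467, 453 and 564 CPM, Plxna1 at 342, 295 and 424 and Plxna3 at 211, 192 and 242, each highest in line 19. Eph receptors (10 of 14) were led by Ephb2 (139.5, 120.4 and 193), Epha2 (51 ± 7.97) and Ephb4 (47.8 ± 8.12). The third family held Neo1 (108, 95.1 and 126), a relative of the netrin receptor DCC, Unc5b (83.8, 66 and 107) and Robo2 (64.7, 50.4 and 76.3). Line 19 was the highest line for 21 of 29 guidance receptors and 39 of 59 growth factor and morphogen receptors with a mean of 1 CPM or more, beside 29.7% of all such rows.

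A smaller share of the transmitter receptors than of the growth factor receptors was detected. Of the glutamate receptors, 14 of 26 (53.8%) were detected, near the 54.2% of all rows, with a median of 1.73 CPM. Grm5, a metabotropic receptor, was the highest at 423, 502 and 427 CPM, before Grm3 (26.9 ± 2.41) and Grm4 (0.761 ± 0.403) of the same family. The AMPA subunits Gria1 (204, 229 and 276), Gria3 (205, 238 and 202) and Gria2 (205, 121 and 108) summed with Gria4 to 644, 628 and 609 CPM. Gria2, the subunit that keeps calcium out of the channel, was highest in line 3, whereas Gria1 was highest in line 19. Of the kainate subunits, Grik5 stood at 185, 187 and 219 CPM, which needs a partner of the Grik1 to Grik3 group to form a channel, while Grik4 (3.91 ± 0.613) and Grik2 (1.96 ± 0.646) were low. NMDA subunits summed to 21.6, 23.9 and 27.6 CPM, with Grin3a (11.3 ± 0.762), Grin2a (6.26 ± 2.03) and Grin3b (2.17 ± 0.389) the highest, and the obligatory Grin1 at 0.859, 0.562 and 1.02. Grid1, a delta receptor, stood at 7.68 ± 0.985 CPM.

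Of the GABA and glycine receptors, 7 of 26 were detected (median 0.169 CPM). The GABA-B subunit Gabbr1 stood at 236, 189 and 279 CPM, but Gabbr2, with which it forms the receptor, had 0, 1 and 0 counts. GABA-A receptors were represented by Gabrg1 (59.8, 65.5 and 44.2 CPM) and Gabra2 (14.7, 11.8 and 6.31), while Gabra6 had no count. Glrb, the beta subunit of glycine receptors, stood at 9.59, 7.2 and 6.42 CPM, and its alpha partners Glra4 and Glra1 at 0.603 and 0.017.

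The list of cholinergic, monoamine, purine and lipid receptors had 34 of 90 members detected and a median of 0.466 CPM. Ednrb, an endothelin receptor of glia and precursors, was the highest at 757, 580.5 and 697 CPM, before Gprc5b (130.2 ± 3.39), an orphan receptor, and F2r (115 ± 8.28), a thrombin receptor. Among purine receptors, P2rx7, an ATP-gated channel, stood at 114, 147 and 129.6, Adora1 at 95.7, 75.4 and 95.9 and P2ry1 at 19.7, 27.1 and 23.3. Lipid receptors were led by Lpar6 (40.7 ± 6.35), Cnr1 (39.1 ± 3.35), the cannabinoid receptor, and S1pr1 (30.6 ± 4.38). Monoamine receptors were led by Adrb1 (35.8 ± 7.12), Hrh1 (25.9 ± 3.48) and Htr2a (6.14 ± 1.25), with 8 of 31 detected. Cholinergic receptors were led by Chrm3 (16.5 ± 0.749), Chrnb1 (12.8 ± 2.88) and Chrnb2 (10.1 ± 0.697), with 4 of 18 detected.

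**Figure D4:**
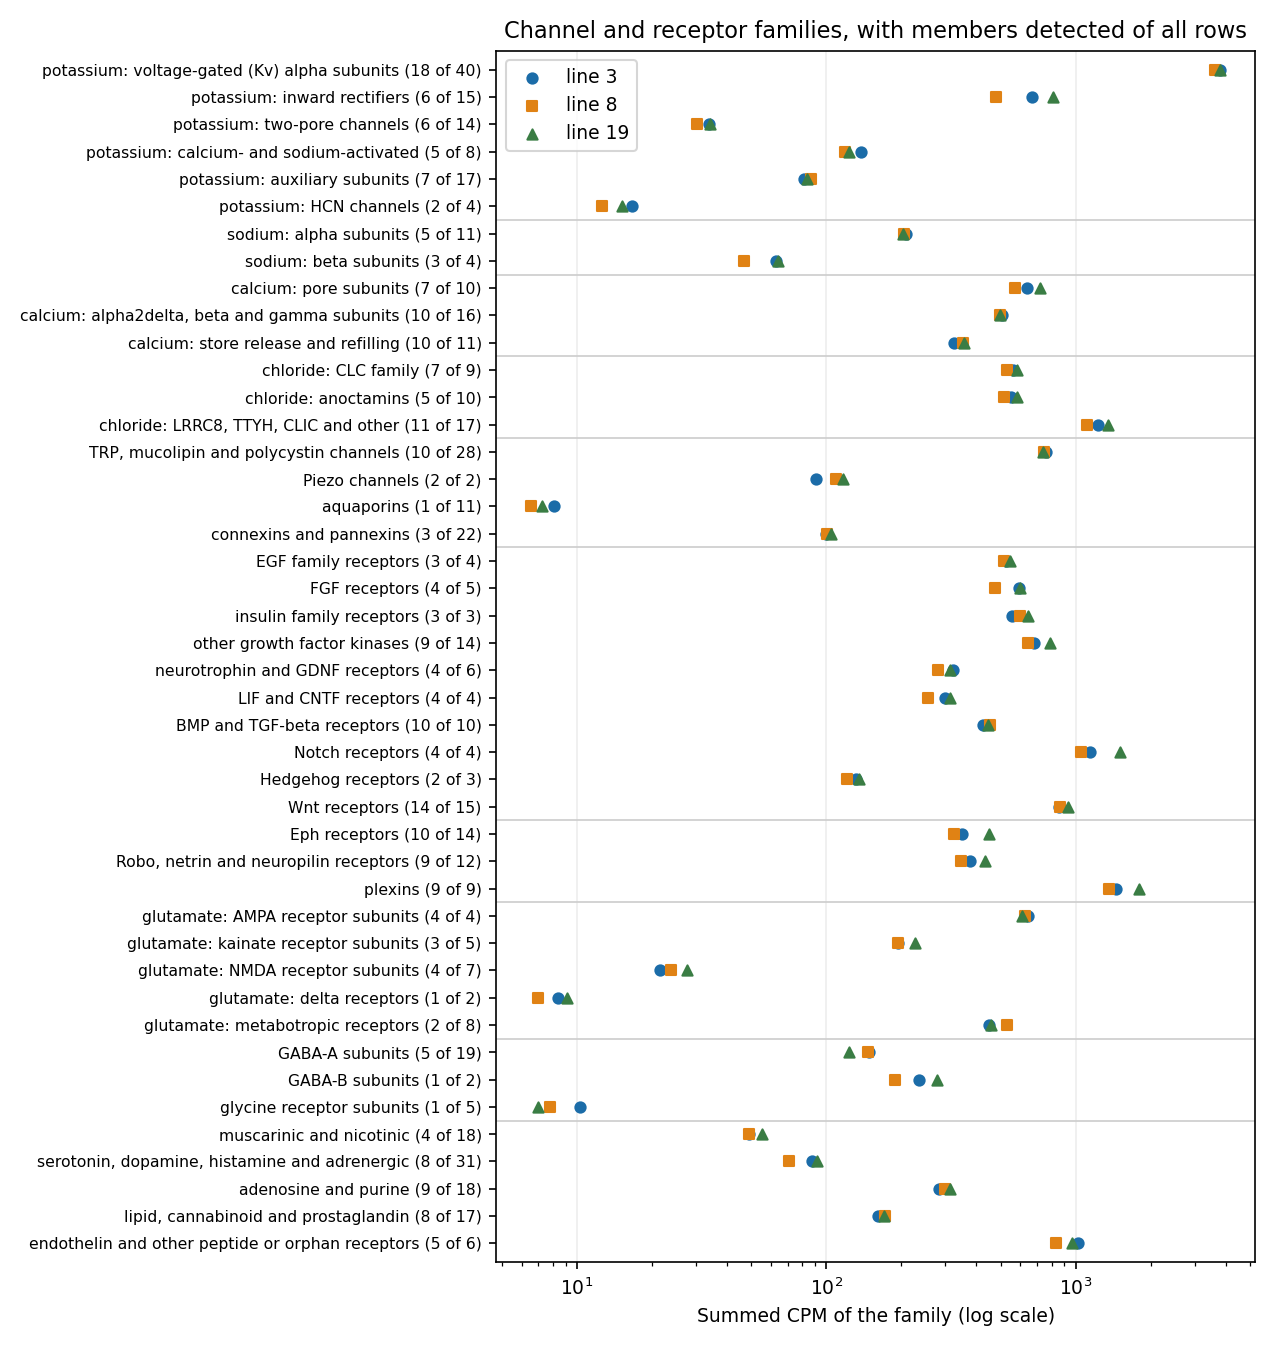
Summed CPM (horizontal axis, log scale) of each family of channels and receptors, with a point for each line; brackets give the members detected of all rows. Voltage-gated potassium channel subunits have the largest sum of counts of any family drawn, in every line.

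Potassium channels were led by a few genes. Of 98 rows, 44 were detected, 48 were under 1 CPM in every line and the median was 0.915 CPM. Kcna2 (chr3:107101146-107115005), a delayed rectifier known from axons, stood at 1993, 1842 and 1770 CPM, rank 18 of all genes and 75 per kb. Kcnc1, a fast channel of the Kv3 group, stood at 1203, 1179.8 and 1413 CPM, and Kcnd3, an A-type channel, at 393, 376 and 393. Per kb, Kcna2 (167, 155 and 149) and Kcnc1 (127, 125 and 149) lay close, meeting in line 19, and Kcnd3 (41, 39.2 and 41) lay below both. Together with the other voltage-gated alpha subunits they summed to 3796, 3604 and 3799 CPM. Kcnj10, the inward rectifier Kir4.1 of glia, stood at 554, 373 and 714 CPM, lowest in line 8, and its partner Kcnj16 at 88.7, 82.1 and 74.7, with Kcnj2 at 10.4 ± 1.29.

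The sums of the other potassium channel families were smaller. Calcium- and sodium-activated channels were Kcnn3 (64 ± 9.87 CPM), Kcnma1 (39.2 ± 2.86) and Kcnt1 (14.2 ± 0.778), and auxiliary subunits Kcnip3 (37.6 ± 5.83), Kcnip1 (17.8 ± 4.32) and Kcnab3 (8.48 ± 1.63). Two-pore leak channels, which set the resting potential, summed to 32.8 ± 2.18, led by Kcnk2 (11 ± 1.27), Kcnk1 (8.29 ± 3.0) and Kcnk5 (4.08 ± 0.656). HCN channels included Hcn3 (12.4 ± 1.74) and Hcn2 (2.0 ± 0.324). Of 15 sodium channel rows, 8 (53.3%) were detected, near the 54.2% of all rows. Among them were the alpha subunits Scn8a (173, 174 and 163 CPM) and Scn2a1 (now Scn2a, 5.03 ± 0.964) and the beta subunits Scn3b (6.96 ± 0.635) and Scn2b (1.47 ± 0.376).

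Of 37 calcium channel rows, 27 were detected (median 7.99 CPM). Cacna1h, a T-type pore, stood at 401, 342 and 482 CPM, Cacna1a, the P/Q-type pore, at 116, 117 and 142, and Cacna1c, an L-type pore, at 65.2, 64.9 and 50. Cacna1h was highest in line 19 and lowest in line 8, and Cacna1c was lowest in line 19. Auxiliary subunits were Cacna2d1 (244, 254 and 204), Cacng5 (107 ± 8.8) and Cacng8 (61 ± 11.5), the latter pair being regulators of AMPA receptors. Store release and refilling was represented by Stim2 (123 ± 7.69), Itpr2 (93 ± 15.8) and Itpr1 (49.9 ± 5.71), with 10 of 11 detected.

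Chloride and anion channels (23 of 36 detected) were led by Ttyh3, of the tweety family, at 676, 542 and 722 CPM, with Clic4 (186 ± 13.3) and Lrrc8b (83.4 ± 14.7), a subunit of the volume-regulated channel. Anoctamins were Ano6 (254, 251 and 276), a lipid scramblase, Ano8 (191 ± 20.2) and Ano3 (32.2 ± 2.68). The intracellular exchangers Clcn3 (161 ± 2.08), Clcn4-2 (now Clcn4, 117 ± 5.2) and Clcn7 (110.3 ± 10.5) led the CLC family. Of the 63 rows of TRP, Piezo, aquaporin and gap junction channels, 16 were detected. Trpm7, a channel with a kinase, stood at 302, 309 and 289 CPM, Pkd2, polycystin-2 of the cilium, at 223, 219 and 221, and Trpc2 at 90.3, 79.2 and 83.9, although exons of overlapping genes on the same strand cover all of Trpc2 (100%), which makes it uncertain. Fam38a (now Piezo1), a stretch-gated channel, stood at 69.7, 77.7 and 89.2 CPM and Fam38b (now Piezo2) at 21.3, 31.3 and 27.4. Gja1, connexin 43 of precursors and astrocytes, stood at 84.2, 85.2 and 89.4 CPM, with Panx1 at 7.57 ± 0.815 and Gjc1 at 5.36 ± 1.32. Per kb they stood at 8.41, 1.26 and 1.07 CPM per kb. The aquaporins with the highest counts were Aqp9 (3.9 ± 1.1), Aqp11 (1.29 ± 0.421) and Aqp4 (1.11 ± 0.351), the astrocyte water channel.

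The lines resembled one another over most genes. Among the 12649 genes detected, Spearman's rho across genes was 0.995 between lines 3 and 8, 0.993 between 3 and 19 and 0.99 between 8 and 19, a description over genes that are not independent. Among the 9767 genes with a mean of at least 10 CPM, the median coefficient of variation was 7.51%, 96.4% of genes differed by under 1.5-fold between the highest and the lowest line, 49 genes by 2-fold or more and 10 by 4-fold or more. Without line 19, 1 gene was 4-fold or more apart.

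The most variable genes included those of the sex chromosomes. Xist, transcribed from the inactive X, was in line 19 at 0.469% of the mean of lines 3 and 8. The Y-linked genes Eif2s3y (14.5, 3.98 and 313 CPM), Ddx3y (7.95, 2.15 and 163), Kdm5d (5.82, 2.15 and 131) and Uty (5.49, 1.94 and 103) were high in line 19 and low, but above 1 CPM, in lines 3 and 8. What gave these counts in lines 3 and 8 was not tested. The summed Y-linked level in line 3 was 4.76% and in line 8 1.44% of that in line 19. The X-linked partners that escape inactivation went the other way: Ddx3x stood at 683, 767 and 538 CPM, Kdm5c at 230.5, 227 and 163, Kdm6a at 132, 135 and 87.5 and Eif2s3x at 27.3, 32.6 and 17.6, each lowest in line 19. Across 371 X-linked genes with a mean of at least 5 CPM, the median ratio of line 19 to the mean of the others was 0.936, where the autosomes ran from 0.941 to 0.997.

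Apart from these, Six3os1, the antisense transcript named above, spanned 17.2-fold. Lars2, a mitochondrial leucyl-tRNA synthetase, stood at 168, 166 and 1959 CPM, and Rn45s spanned 10.5-fold, both high in line 19 alone. Whether reads of ribosomal RNA reach the Lars2 row was not tested. Lrrc9 (3.58, 8.48 and 23.6 CPM) was highest in line 19. Tshz3 (34.6, 13.7 and 51.9), a transcription factor, and Luzp2 (11.2, 4.39 and 15.7) shared another order, lowest in line 8.

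**Figure D5:**
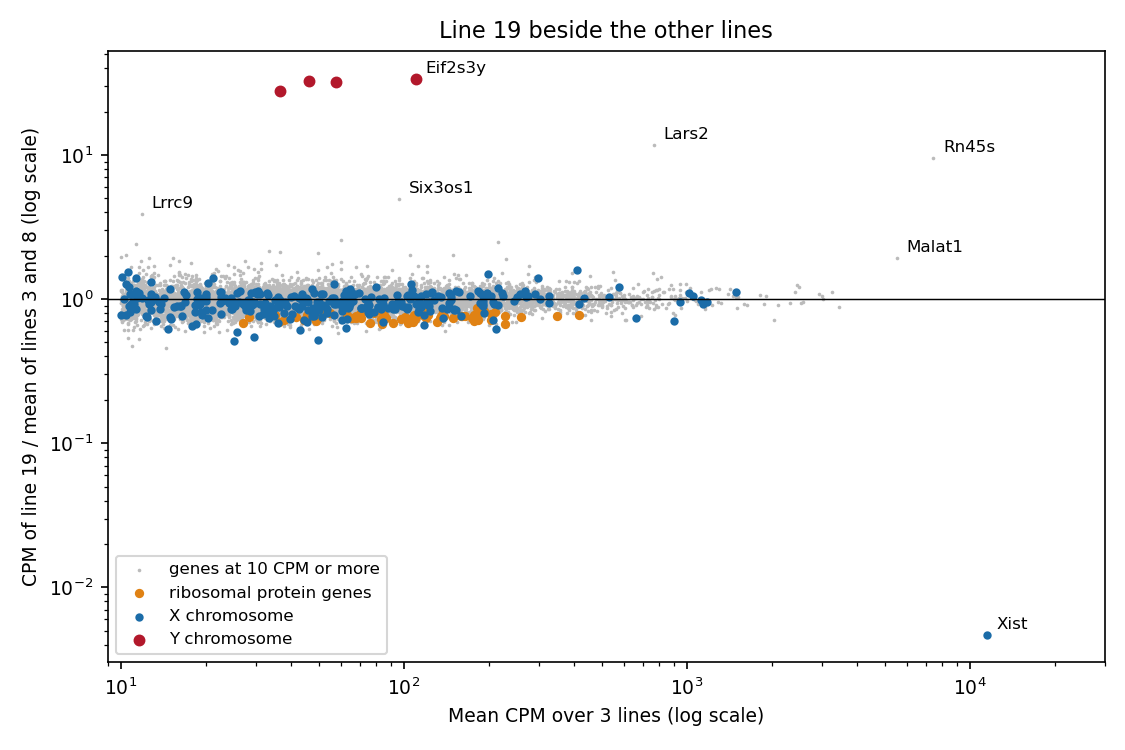
Ratio of line 19 to the mean of lines 3 and 8 (vertical axis, log scale) against mean CPM (horizontal axis, log scale) for genes with a mean of at least 10 CPM. Ribosomal protein genes lie mostly below the line at a ratio of 1, the 4 Y-linked genes lie far above it, and Xist is the lowest point.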

How the data were processed

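The 3 wild-type libraries were used, and the members and gene lists were chosen with earlier results of these data known. Deposited values were raw counts per gene symbol. The submitters' processing notes name cutadapt 1.14, STAR, HTSeq 0.7.2, DESeq2 and build mm10. Which annotation, strand setting and library selection were used is not given in the sources used here. Counts were divided by library totals (CPM) and by merged exon length of GENCODE mouse release 21 (GRCm38, the same build as mm10) with pandas 2.3.3. With 22854 of 23337 rows matched, unmatched rows have no length. Ratios used a floor of 3 counts. No test was run, since the design has 1 group. The steps were tested on simulated counts with counting error only. Simulated lines shared the same levels, apart from genes raised in a single line, so the spread between real lines was not tested.

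Named genes were the 20 highest by CPM, the 12 highest per kb (exons over 200 bases), the 12 highest noncoding, 5 markers, up to 6 per list (3 per family of receptors or channels), up to 4 undetected members, and the 12 most variable at 10 CPM or more. Named outside this rule, after their values were seen, were Fmr1, Neat1, Kcnq1ot1, Meg3, Tsix, Tubb3, Dcx, Hes1, Hes5, Fosb, Nr4a1, Grin1, Ubb, Gapdh, Wnt8b, Emx1, Eomes, Neurog2, Neurod6, Slc32a1, Pdgfrb, Col1a2, Mir25 and Eif2s3x. Some genes that the rule names are not reported here. Trpc4ap and Kcnq1ot1 were kept out of the channel lists. Exons of other genes cover over 30% of Tagln, Gbx2, Rpl13a, Hist3h2a, Hist2h3c1, Grin3b, Tsix and Mir1191, so their counts are uncertain. Alternatives were other scalings (edgeR 4.0.16 TMM, DESeq2 1.42.0 size factors), thresholds, lengths and leaving out each line.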

Additional observations from a re-analysis of the deposited data

How the results depend on the processing

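No paired analysis was possible because only 1 group of lines was described and no result comes from a test. With TMM scaling, DESeq2 size factors or other library totals, the means of 322 genes moved by at most 4.99%. Over all alternatives for these genes, 38 of 2254 values moved by more than 1 SD, in 36 genes. The number of genes at least 4-fold apart between lines was 10, became 37 at a mean of 1 CPM and 49 at 2-fold, and ranged from 1 (without line 19) to 10 when a line was left out. Erythroid members detected ranged from 0 to 1 (without line 3) in the same way, and 1 was detected at 0.5 CPM. At 2 CPM the ventral list had 4 members detected, the microglial list 1, the histones 5 and the microRNA rows 11, and at 0.5 CPM the histones had 15. Without Rn45s in the total, the 10 most abundant genes held 4.16% and protein-coding rows 97% of counts. Ranked per kb, 11 of the 20 most abundant genes stayed among the first 20. Depth limits levels near 1 CPM, and rows without a count are not shown to be unexpressed.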

Other observations

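Among X-linked genes with a mean of at least 5 CPM, those with the lowest level in line 19 relative to lines 3 and 8 after Xist were listed, a choice made from their values. Apln, the ligand of the apelin receptor, stood at 57.1, 61.4 and 31.1 CPM, Mid1, a microtubule-associated ubiquitin ligase, at 51.9, 46.7 and 30 and Slc25a5, a mitochondrial ADP and ATP carrier, at 222, 262 and 149.6. Bex2, a brain-expressed X-linked gene, stood at 68.9, 74.4 and 45 CPM. The row 5530601H04Rik (30.8, 38.9 and 19.1 CPM) was also lowest in line 19.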
